A study of Mus musculus with 20 samples.

Results

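The genes described are 49 genes of the lysosome, measured in liver, out of 27573 gene names on the arrays: 12 cathepsins and legumain, 13 glycosidases, 5 sulfatases, 4 activator proteins and lipofuscinosis enzymes, 5 membrane proteins, the transcription factor Tfeb and 9 subunits of the proton pump. Members were taken by the gene name of the probes, and 2 carried an older symbol on the arrays (Tcfeb for Tfeb, 1110007C02Rik for Arsb). All 49 had a probe, 27 of them had more than 1, and all 49 passed the filter on low signal, which left 17552 genes in all. Liver came from 20 male mice aged 28 weeks on a mixed Sv129/C57Bl6J background, either wild-type or LXR alpha/beta double knockout, that is, without Nr1h3 and Nr1h2. For 7 weeks the mice ate a normal chow or a Western diet, made of a cocoa butter diet and mouse chow. RNA came from pieces of the large lobe. Each of the 4 groups held 5 mice with 1 single-colour array per mouse, and the design text gives the replicates as different mice.

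Lysosomes are acidic compartments that break down proteins, glycans, sulfated sugars and lipids brought in by endocytosis, phagocytosis or autophagy. A proton pump, the V-ATPase, keeps the interior acidic, and heavily glycosylated membrane proteins shield the limiting membrane from the hydrolases within. TFEB and its relatives switch on many of these genes together through E-box-like promoter elements. In liver, hepatocytes use lysosomes for autophagy and for the release of cholesterol from lipoprotein esters, while macrophages are particularly rich in cathepsins and other hydrolases. LXR alpha and beta are nuclear receptors for oxidised cholesterol that raise cholesterol efflux and restrain inflammatory genes.

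Levels below are log2 of the background-corrected probe intensity minus log2 of the 75th percentile of the same array, so that 0 is the 75th percentile and 1 unit is a doubling. The scale compares mice for 1 probe and not 1 gene with another. Differences are given as log2 difference ± SE from 1 limma fit to all groups, with Benjamini-Hochberg adjusted p over all genes tested, and "rose", "fell", "higher" and "lower" are used as calls where the adjusted p was under 0.05. The 75th percentile of the arrays lay between 170.3 and 435.1 intensity units, and 53.6% to 67.12% of probes were well above background. The percentile differed by group. In wild-type mice it was 170.3 to 280 on normal and 261.1 to 330.8 on Western diet. In knockout mice it was 223.5 to 323.3 and 339.7 to 435.1. Knockout arrays on Western diet thus had a larger value subtracted than any other array, and differences that involve them depend on the scaling chosen. Nr1h3 lay at 3.82 to 4.68 in the 10 wild-type mice and at -5.44 to -3.74 in the 10 knockout mice, and Nr1h2 at 0.60 to 1.01 and -5.75 to -3.57, so both deleted genes matched the labels. Hepatocyte markers marked the tissue as labelled, with mean levels of 13 genes from 6.25 to 7.76 in every mouse. Of the 49 members, 48 were well above background on all 20 arrays, and Ctse was on 19. Spots that the extraction software marked as outliers were left out, so a few members have fewer than 5 values in a group.

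On Western diet more of the lysosomal genes were higher than lower in LXR knockout compared with wild-type liver. Of 48 members with a value, 24 were higher and 7 lower, against 25% and 32.7% of all 17545 genes tested in that comparison. The members were chosen with earlier results of these data known, so the shares are a description and no test. The median difference of the members was 0.37, and that of all genes was -0.16. A change of at least 2-fold was seen for 11 members upwards and for 1, Gaa, downwards. The 5 knockout and 5 wild-type mice did not overlap for 20 members that were higher and 7 that were lower in knockout mice, while 42.3% of all genes showed no overlap. Cathepsins and legumain had a median difference of 0.95, glycosidases of 0.76, sulfatases of 0.43 and proton pump subunits of 0.34. The 5 membrane proteins had a median of 0.00, and none of them was called higher at this scaling.

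**Figure D1:**
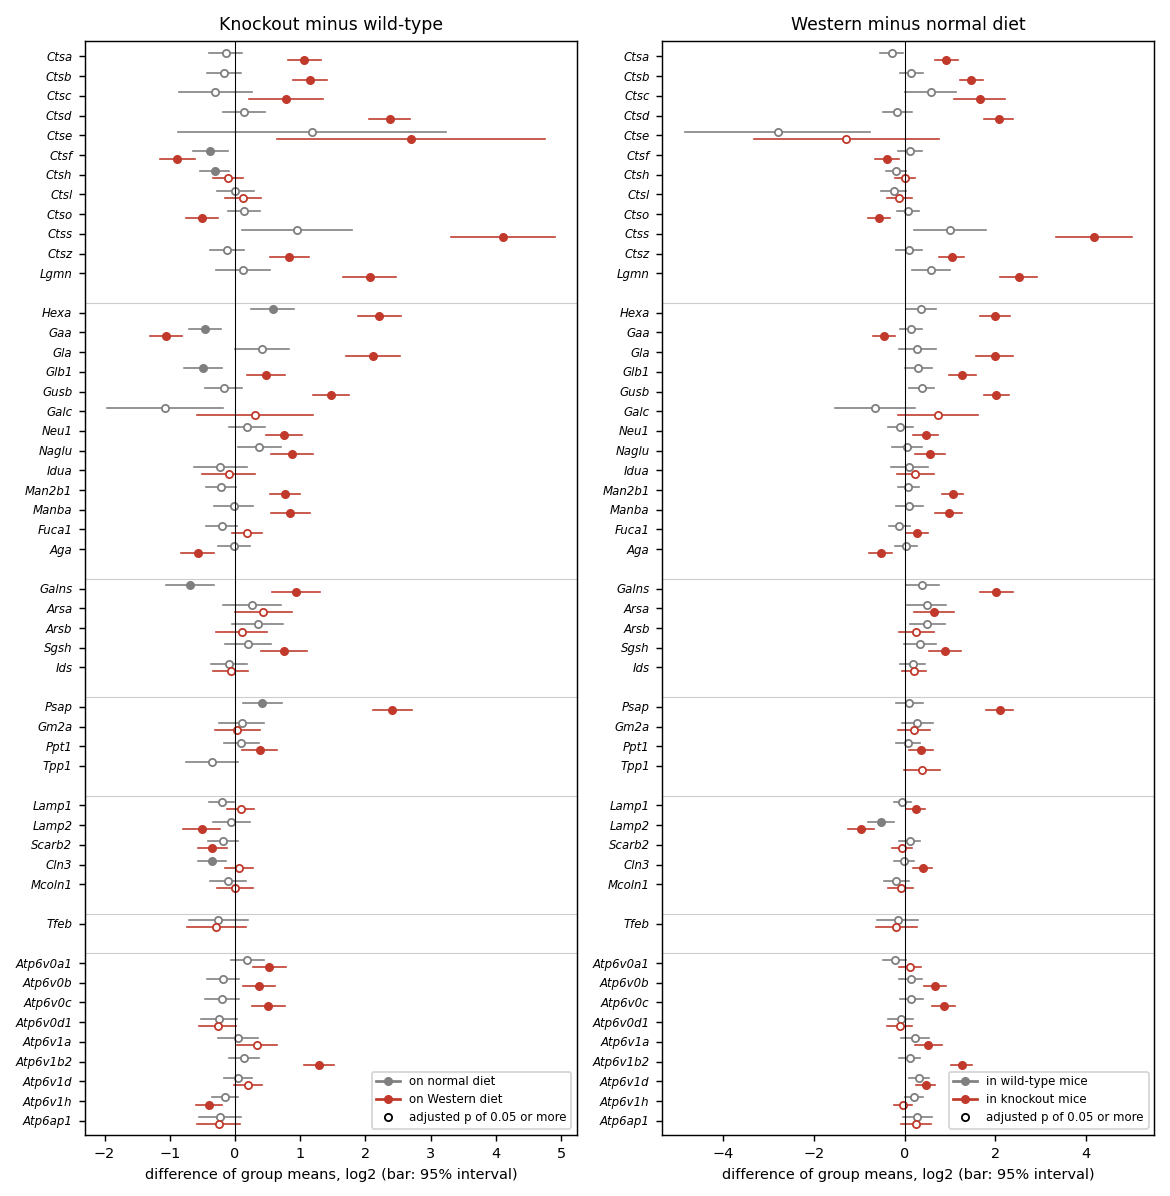
Log2 difference with its 95% interval for each of the 49 genes, grouped by role from cathepsins at the top to the proton pump at the bottom; the left panel shows knockout minus wild-type on normal diet (grey) and on Western diet (red), the right panel Western minus normal diet in wild-type (grey) and knockout mice (red), and filled points passed an adjusted p of 0.05. Filled red points to the right of 0 number 24 in the left and 28 in the right panel, and Ctse has the widest interval.

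Promoter sequence was examined for the E-box CACGTG and for the longer palindrome TCACGTGA, which contains it and is the core of the element bound by TFEB; both read the same on either strand. RefSeq promoters (GRCm38.p6, 250 bases before to 50 after the start) were matched by symbol for 42 of 49 members; Aga, Atp6v1b2, Atp6v1h, Ctsb, Ctse, Ctsh and Galns were not matched. CACGTG was present for 17 of the 42 (40.5%), against 8.09% of 27025 genes, and TCACGTGA for 7 (16.7%), against 1.12%. By direction on Western diet, CACGTG was present for 8 of 20 members that were higher, 2 of 5 that were lower and 7 of 16 that were not called, and TCACGTGA for 3, 0 and 4. CACGTG was thus about as frequent in members that rose (40%) as in those that were not called (43.8%), while TCACGTGA was found for 15% and 25%. Atp6v1b2, Ctsb, Ctse and Galns, which were higher, are not in these shares, as they had no matched promoter. The part of TFEB was not tested. The promoters of the 6 members with the largest differences on Western diet that hold CACGTG are shown, 4 higher and 2 lower in knockout mice, with capitals marking CACGTG or, where present, TCACGTGA. Ctsd is at chr7:142387778-142388077 (minus strand), Gla at chrX:134600956-134601255 (minus), Lgmn at chr12:102439043-102439342 (minus, the second of 2 starts), Ctsa at chr2:164833523-164833822 (plus, the second of 2 starts), Gaa at chr11:119267713-119268012 (plus) and Ctsf at chr19:4854915-4855214 (plus).
Ctsd: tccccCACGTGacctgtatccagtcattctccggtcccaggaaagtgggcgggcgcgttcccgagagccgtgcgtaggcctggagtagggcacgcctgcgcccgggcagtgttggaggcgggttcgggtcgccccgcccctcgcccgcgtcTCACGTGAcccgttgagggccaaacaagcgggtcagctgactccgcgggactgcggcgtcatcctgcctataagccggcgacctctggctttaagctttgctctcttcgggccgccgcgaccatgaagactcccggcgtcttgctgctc
Gla: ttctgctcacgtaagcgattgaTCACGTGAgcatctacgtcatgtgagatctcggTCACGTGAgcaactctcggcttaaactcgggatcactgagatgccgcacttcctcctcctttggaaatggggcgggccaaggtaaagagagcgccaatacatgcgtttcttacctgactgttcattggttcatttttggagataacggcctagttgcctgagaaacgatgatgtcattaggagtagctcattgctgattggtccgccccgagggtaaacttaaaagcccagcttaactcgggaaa
Lgmn: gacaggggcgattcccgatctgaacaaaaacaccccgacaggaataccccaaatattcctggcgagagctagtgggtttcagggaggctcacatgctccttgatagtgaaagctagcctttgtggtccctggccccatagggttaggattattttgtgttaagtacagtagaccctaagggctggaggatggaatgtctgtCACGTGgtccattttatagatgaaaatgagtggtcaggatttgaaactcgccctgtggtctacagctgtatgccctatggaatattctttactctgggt
Ctsa: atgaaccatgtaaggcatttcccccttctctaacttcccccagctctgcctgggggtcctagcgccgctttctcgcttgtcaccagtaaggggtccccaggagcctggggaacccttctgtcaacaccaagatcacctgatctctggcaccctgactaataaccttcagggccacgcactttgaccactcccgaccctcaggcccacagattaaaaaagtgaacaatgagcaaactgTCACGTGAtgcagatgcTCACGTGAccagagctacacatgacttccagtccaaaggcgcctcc
Gaa: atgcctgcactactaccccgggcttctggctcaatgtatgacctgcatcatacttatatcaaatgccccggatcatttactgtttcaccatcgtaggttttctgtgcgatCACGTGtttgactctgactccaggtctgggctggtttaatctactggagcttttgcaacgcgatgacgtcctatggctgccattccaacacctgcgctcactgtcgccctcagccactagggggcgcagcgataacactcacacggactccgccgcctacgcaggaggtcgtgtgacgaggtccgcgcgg
Ctsf: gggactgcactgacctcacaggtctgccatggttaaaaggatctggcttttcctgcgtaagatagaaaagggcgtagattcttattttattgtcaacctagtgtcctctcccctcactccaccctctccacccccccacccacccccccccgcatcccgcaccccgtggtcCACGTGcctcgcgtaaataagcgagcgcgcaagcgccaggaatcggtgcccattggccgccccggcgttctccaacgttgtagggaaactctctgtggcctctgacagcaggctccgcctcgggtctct

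Counted from the start, TCACGTGA-containing E-boxes began at -227 and -194 in Gla and at -12 and 6 in Ctsa, where both copies are the longer form. Ctsd held a plain E-box at -245 and the longer form at -98. Lgmn, Gaa and Ctsf, the last 2 lower in knockout mice, held a single plain E-box at -49, -140 and -79. These matches are letters in a window and no measurement of binding.

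Markers of several cell types differed in the same livers, and in a whole tissue more cells of a type and more RNA per cell cannot be told apart. On Western diet 18 of 18 macrophage markers were higher in knockout mice, with a median difference of 2.66. Their mean level ran from -0.77 to 0.59 in wild-type and from 2.53 to 2.98 in knockout mice on Western diet, and from -1.05 to -0.12 and from -0.35 to 1.80 on normal diet. Of 7 markers of lipid-laden macrophages 6 were higher. The mean level of the 6 genes of this list with a value on every array was -0.63 to 0.05 in wild-type and 3.60 to 4.24 in knockout mice. Markers of resident Kupffer cells went the other way, 6 of 7 being lower, with mean levels from 0.34 to 2.08 in wild-type and from -3.66 to -2.73 in knockout mice. Of 14 hepatocyte markers 12 were lower, and the median difference of all 14 was -0.45. Their mean level was 6.96 to 7.32 in wild-type and 6.25 to 6.60 in knockout mice. Many of these probes are very bright, and saturation of their spots was not examined. A larger 75th percentile was also subtracted on knockout (339.7 to 435.1 units) than on wild-type arrays of this diet (261.1 to 330.8). The part of both in the hepatocyte marker differences was not tested. Stellate cell and fibroblast markers were higher for 8 of 11, neutrophil markers for 4 of 5 tested and bile duct markers for 5 of 6. Of 8 T and B cell markers tested 1 was higher and 2 were lower, with a median of -0.20. Of 8 endothelial markers 1 was higher and 1 lower, with a median of -0.36. Among all genes 25% were higher and 32.7% lower. Among macrophage markers Itgam was well above background on none and Cx3cr1 on 3 of the 5 wild-type arrays on Western diet. On the same 5 arrays Gpnmb of the lipid-laden list was on 1, and the neutrophil markers Camp and Ngp on 3. Of the Kupffer cell markers Timd4 was well above background on 2, Cd163 on 3 and Clec4f on 4 of the 5 knockout arrays on Western diet. The size of differences near background is uncertain. The part of these cells in the lysosomal differences was not tested.

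**Figure D2:**
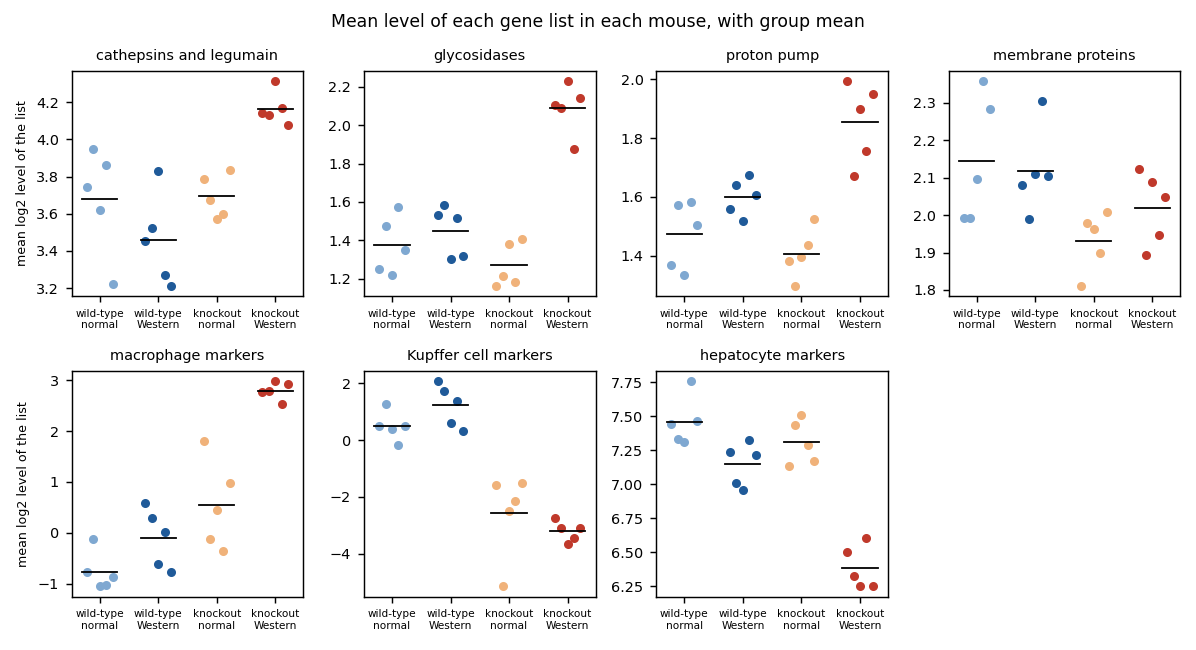
Mean log2 level of each gene list in each mouse (points) with the group mean (line), over the genes of the list with a value on every array; the upper row shows 4 lysosomal groups and the lower row markers of macrophages (18 genes), Kupffer cells (7) and hepatocytes (13). Knockout mice on Western diet stand above every other mouse for cathepsins, glycosidases and macrophage markers, and below every wild-type mouse for Kupffer cell and hepatocyte markers.

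Among the proteases, 8 of 12 rose and 2 fell in knockout mice on Western diet, beside 25% and 32.7% of all genes. Ctss, the cathepsin S of antigen-presenting cells, showed the largest difference of all members. Its probe lies at chr3:95641644-95641703 (mm8, the build of the array files). Ctss read 4.05, 3.88, 2.17, 3.17 and 2.14 in wild-type and 7.09, 7.17, 7.41, 7.14 and 7.14 in knockout mice on Western diet. On normal diet it read 1.90, 2.82, 1.74, 1.92 and 1.96 in wild-type mice and 2.71, 3.18, 2.15 and 4.03 in the 4 knockout mice with a value. The 5 knockout mice on Western diet lay within a narrow band far above all others, while wild-type mice on that diet included 3 above and 2 within the range of wild-type mice on normal diet. The difference on Western diet was 4.11 ± 0.38, adjusted p = 8.07e-08, or 17.3-fold.

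Ctsd, cathepsin D, the main aspartic protease of lysosomes, read 7.27, 7.57, 7.66, 6.96 and 7.26 in knockout mice on Western diet and 5.20, 4.69, 5.12 and 4.90 in the 4 wild-type mice with a value. Knockout mice lay apart from every other mouse, since both groups on normal diet stayed at or under 5.46. That came to 2.37 ± 0.15, adjusted p = 2.6e-09, a 5.16-fold difference. Lgmn, legumain, which cleaves after asparagine and activates cathepsins, read 5.17, 5.26, 5.59, 5.00 and 5.31 in knockout and 3.60, 3.43, 2.92, 3.31 and 2.77 in wild-type mice. No knockout mouse was near the wild-type range, and the difference was 2.06 ± 0.20, adjusted p = 7.25e-08. Ctsb (cathepsin B) was higher by 1.15 ± 0.12, Ctsa (protective protein/cathepsin A) by 1.06 ± 0.12, Ctsz (cathepsin Z, 3 wild-type and 4 knockout values) by 0.83 ± 0.14 and Ctsc (cathepsin C, the activator of granule serine proteases) by 0.78 ± 0.27. With arrays scaled to their median, Ctsz (0.68, adjusted p = 0.0519) and Ctsc (0.69, adjusted p = 0.0711) no longer passed.

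Ctsf, cathepsin F, a cysteine protease found in many tissues, was lower on Western diet. Ctsf read 0.64, 0.44, 0.42, 0.66 and 0.35 in knockout and 1.18, 1.45, 1.41, 1.48 and 1.40 in wild-type mice, with no overlap. This gave -0.88 ± 0.13, adjusted p = 1.18e-05. Ctso, cathepsin O, read 2.32, 2.22, 2.13, 2.57 and 2.25 in knockout and 2.82, 2.73, 2.83, 2.75 and 2.89 in wild-type mice. The knockout mice were again all lower, with a difference of -0.51 ± 0.12, adjusted p = 0.00123, though normexp background correction left -0.24, adjusted p = 0.458. The cysteine proteases Ctsl and Ctsh were not called, at 0.13 ± 0.13 and -0.11 ± 0.11. Quantile normalization turned both into calls, Ctsl at 0.54, adjusted p = 0.000506 and Ctsh at 0.33, adjusted p = 0.00286, and the Ctsl spot was saturated on 4 of the 5 arrays of knockout mice on Western diet and on no other array, which limits its value in that group.

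Ctse, cathepsin E, an aspartic protease of endosomes, split within the wild-type groups. On normal diet Ctse read -0.19, -0.37, 0.39, 0.60 and -4.42 in wild-type and 0.36, 0.79, -0.17, 0.58 and 0.33 in knockout mice. On Western diet it read -4.67, -3.97, 0.75, -5.71 and -4.40 in wild-type and -1.02, -0.95, -0.74, -0.51 and -1.30 in knockout mice. Thus 1 wild-type mouse on normal diet and 4 on Western diet lay at or below -3.97, and the other 5 wild-type mice lay between -0.37 and 0.75. The difference on Western diet was 2.70 ± 0.98, adjusted p = 0.0241, with overlapping groups. Leaving out wild-type mouse 1, 4 or 5 on Western diet ended the call (adjusted p = 0.0566, 0.0727 and 0.0544), as did normexp background correction (0.41, adjusted p = 0.503) and the deposited matrix (1.15, adjusted p = 0.0852).

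Glycosidases, which take sugars off glycolipids and glycoproteins, rose for 8 of 13 and fell for 2, beside 25% and 32.7% of all genes. Hexa, the alpha subunit of hexosaminidase, which degrades ganglioside GM2, read 4.91, 5.00, 5.20, 4.72 and 4.96 in knockout and 2.93, 3.14, 2.46, 2.83 and 2.35 in wild-type mice on Western diet. On normal diet it read 2.91, 2.96, 3.002, 2.63 and 3.30 in knockout and 2.27, 2.56, 2.10, 2.57 and 2.43 in wild-type mice. Knockout mice were above wild-type mice on both diets without overlap, with a wide gap on Western diet. The Western diet difference was 2.21 ± 0.16, adjusted p = 2.01e-09. Gla, alpha-galactosidase A, the enzyme missing in Fabry disease, read 0.12, 0.40, 0.71, -0.02 and 0.47 in knockout and -1.50, -1.60, -1.96, -1.82 and -2.01 in wild-type mice. The groups were far apart, and the difference was 2.11 ± 0.20, adjusted p = 5.98e-08.

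Gusb, beta-glucuronidase, was higher by 1.47 ± 0.13, adjusted p = 4.23e-08. Naglu, Manba, Man2b1 and Neu1, which act on heparan sulfate, beta-mannosides, alpha-mannosides and sialic acids, were higher by 0.87, 0.85, 0.76 and 0.76. When all probes of a gene were averaged, Naglu (0.49, adjusted p = 0.0961) and Man2b1 (0.08, adjusted p = 0.639) were no longer called. Gaa, acid alpha-glucosidase, which degrades lysosomal glycogen, went down. Gaa read 2.52, 2.14, 2.39, 2.04 and 2.37 in knockout and 3.18, 3.38, 3.32, 3.38 and 3.46 in wild-type mice on Western diet. Every knockout mouse was below every wild-type mouse, and the difference was -1.06 ± 0.12, adjusted p = 4.42e-07. Aga, aspartylglucosaminidase, read 0.84, 0.66, 0.80, 1.16 and 1.10 in knockout and 1.51, 1.57, 1.39, 1.61 and 1.36 in wild-type mice, again without overlap. Its difference was -0.57 ± 0.12, adjusted p = 0.000424, and by normexp background correction the value was -0.33, adjusted p = 0.178. Galc, Idua and Fuca1 were not called, with 0.30 ± 0.42, -0.09 ± 0.19 and 0.19 ± 0.11.

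**Figure D3:**
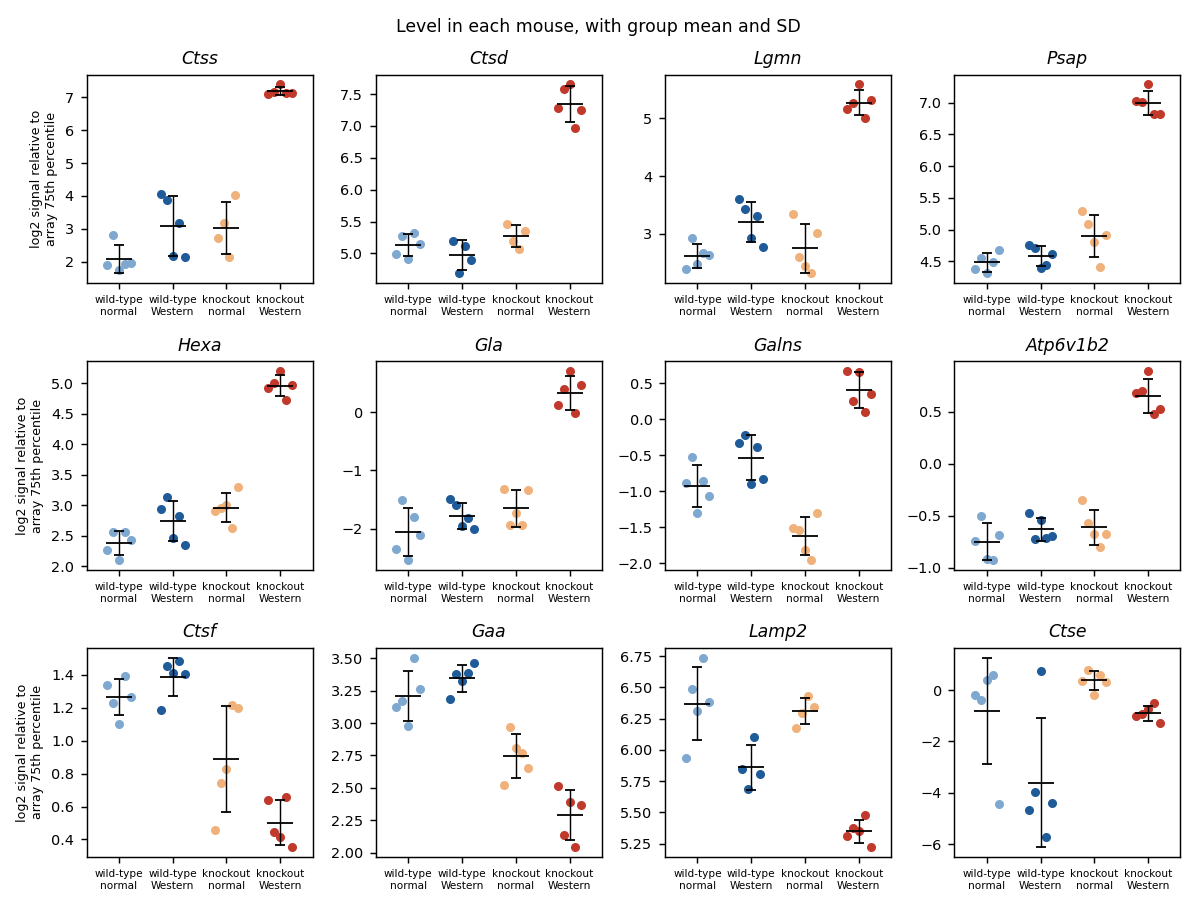
Level of 12 genes in each mouse (points), with group mean and SD (bars), in the order wild-type normal, wild-type Western, knockout normal and knockout Western; the vertical axis is log2 signal relative to the 75th percentile of the array. Knockout mice on Western diet stand apart at the top for Ctss, Ctsd, Lgmn, Psap, Hexa, Gla, Galns and Atp6v1b2 and at the bottom for Lamp2, whereas Ctse splits within the wild-type groups.

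Of the 5 sulfatases, which remove sulfate from glycosaminoglycans and sulfolipids, 2 rose and none fell, beside 25% and 32.7% of all genes. Galns, which acts on keratan and chondroitin sulfate, read 0.67, 0.25, 0.66, 0.10 and 0.35 in knockout and -0.33, -0.22, -0.90, -0.39 and -0.84 in wild-type mice on Western diet. On normal diet it read -1.50, -1.54, -1.82, -1.96 and -1.29 in knockout and -0.89, -0.53, -1.30, -0.86 and -1.06 in wild-type mice. The groups did not overlap on Western diet and nearly parted in the opposite order on normal diet, with 0.94 ± 0.18, adjusted p = 0.00017 on Western diet and -0.70 ± 0.18, adjusted p = 0.00883 on normal diet. Sgsh, heparan N-sulfatase, read 1.70, 2.03, 2.13, 1.46 and 1.61 in knockout and 1.12, 0.80, 1.10, 1.29 and 0.85 in wild-type mice on Western diet. All knockout mice were higher, by 0.75 ± 0.17, adjusted p = 0.000843, but the mean of all its probes gave 0.19, adjusted p = 0.546. Arsa, Arsb and Ids were not called at 0.43 ± 0.21, 0.10 ± 0.19 and -0.07 ± 0.13.

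Psap encodes prosaposin, the precursor of the saposins that present sphingolipids to their hydrolases. Psap read 7.03, 7.01, 7.29, 6.81 and 6.82 in knockout and 4.75, 4.71, 4.39, 4.45 and 4.62 in wild-type mice on Western diet. On normal diet the values were 5.29, 5.08, 4.81, 4.40 and 4.92 in knockout and 4.38, 4.56, 4.31, 4.49 and 4.67 in wild-type mice. Knockout mice on Western diet were far above all others, and on normal diet the genotypes overlapped. The Western diet difference of Psap was 2.41 ± 0.14, adjusted p = 2.78e-10 (5.32-fold). Ppt1, the palmitoyl-protein thioesterase of infantile neuronal ceroid lipofuscinosis, read 2.92, 2.96, 3.12, 2.96 and 2.85 in knockout and 2.70, 2.76, 2.22, 2.85 and 2.37 in wild-type mice. With overlapping groups it was higher by 0.38 ± 0.13, adjusted p = 0.016. Leaving out wild-type mouse 3 gave 0.29 and an adjusted p of 0.0547, and median scaling gave 0.29, adjusted p = 0.292. Gm2a, the GM2 activator, differed by 0.03 ± 0.17 and was not called. Tpp1, tripeptidyl peptidase 1, had no value on the brightest probe in wild-type mice on Western diet, because 14 of its 20 spots were marked as outliers. Its second probe was higher in knockout mice on Western diet by 0.55 ± 0.12 (adjusted p over probes = 0.000506), while the brightest probe with outlier spots kept was lower by 0.37 ± 0.09 (adjusted p = 0.00195).

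Of the 5 membrane proteins 2 fell and none rose, beside the 32.7% of all genes that were lower. Lamp2, a major glycoprotein of the lysosomal membrane that is needed for autophagy, read 5.31, 5.37, 5.35, 5.48 and 5.22 in knockout mice and 5.84, 5.68, 6.10 and 5.81 in the 4 wild-type mice with a value on Western diet. Every knockout mouse was lower, with a difference of -0.51 ± 0.14, adjusted p = 0.00395. Scarb2, also called LIMP-2, the receptor that carries glucocerebrosidase to the lysosome, read 2.53, 2.28, 2.43, 2.46 and 2.39 in knockout and 2.82, 2.63, 2.65, 2.91 and 2.82 in wild-type mice. The groups did not overlap, and the difference was -0.35 ± 0.11, adjusted p = 0.00985. Neither call held with quantile normalization, which gave -0.15, adjusted p = 0.187 for Lamp2 and -0.17, adjusted p = 0.153 for Scarb2, and which called Lamp1 higher (0.50, adjusted p = 0.00072). The deposited matrix likewise lost both calls and called Lamp1 higher (0.50, adjusted p = 0.000106). As deposited in the scanner files and scaled to the 75th percentile, Lamp1 differed by 0.09 ± 0.10, Cln3 by 0.06 ± 0.10 and the calcium channel Mcoln1 by -0.00 ± 0.13, none of them called. Tfeb, the transcription factor, was dim and was called in no comparison, with -0.29 ± 0.21, adjusted p = 0.263 on Western diet. It became a call in the lower direction with median scaling (-0.38, adjusted p = 0.036), quantile normalization (-0.37, adjusted p = 0.0244) and the deposited matrix (-0.21, adjusted p = 0.0165).

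For the proton pump, 4 of 9 subunits rose and 1 fell, beside 25% and 32.7% of all genes. Atp6v1b2, the B2 subunit of the ATP-hydrolysing head, read 0.67, 0.70, 0.89, 0.48 and 0.53 in knockout and -0.48, -0.72, -0.54, -0.71 and -0.70 in wild-type mice on Western diet. Knockout mice were all above 0 and wild-type mice all below it. The difference was 1.28 ± 0.11, adjusted p = 2.21e-08. Atp6v0a1, an a subunit of the membrane sector, read 0.50, 0.16, 0.37, 0.22 and 0.48 in knockout and -0.22, -0.39, -0.27, 0.12 and -0.14 in wild-type mice. No mice overlapped, and the difference was 0.53 ± 0.12, adjusted p = 0.000946. Atp6v0c, the proteolipid ring subunit, was higher by 0.51 ± 0.12, and Atp6v0b, another ring subunit, by 0.36 ± 0.12. Median scaling left 0.44, 0.42 and 0.28 for Atp6v0a1, Atp6v0c and Atp6v0b, with adjusted p = 0.0974, 0.107 and 0.295. Atp6v1h, a regulatory subunit of the head, read 1.82, 1.55, 1.68, 1.76 and 1.55 in knockout and 1.98, 2.12, 2.25, 1.87 and 2.13 in wild-type mice. It was lower in every knockout mouse, with a difference of -0.40 ± 0.10, adjusted p = 0.00164, and the value by normexp was -0.15, adjusted p = 0.528. Atp6v1a, Atp6v1d, Atp6v0d1 and the accessory subunit Atp6ap1 were not called, at 0.34 ± 0.15, 0.20 ± 0.10, -0.26 ± 0.13 and -0.25 ± 0.16.

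On normal diet 8 of the 49 members were called between genotypes, a share near that of all genes. Of 49 members 2 were higher and 6 lower in knockout mice, against 11.3% and 8.39% of all 17547 genes tested. The members' median difference was -0.10 and that of all genes -0.06. Hexa (0.58 ± 0.16, adjusted p = 0.0134) and Psap (0.42 ± 0.14, adjusted p = 0.0473) were higher. Galns (-0.70 ± 0.18), Glb1 (-0.50 ± 0.14), Gaa (-0.46 ± 0.12), Ctsf (-0.38 ± 0.13), Cln3 (-0.35 ± 0.10) and Ctsh (-0.31 ± 0.11) were lower, with adjusted p = 0.00883, 0.0167, 0.00853, 0.0468, 0.0221 and 0.0479. Gaa read 2.52, 2.97, 2.81, 2.77 and 2.65 in knockout and 3.12, 3.17, 2.98, 3.50 and 3.26 in wild-type mice, so that the groups did not overlap here either. For Cln3 the call rests on the brighter probe. Its dimmer probe read -2.80, -2.45, -2.56, -2.80 and -3.15 in knockout and -2.71, -3.31, -2.81, -3.70 and -3.04 in wild-type mice. These values overlap and show no lower level in knockout mice, so the direction for Cln3 on normal diet is uncertain. Macrophage markers were already higher for 9 of 18 on this diet, with a median difference of 1.08 over all 18. Kupffer cell markers were lower for 4 of 7. The part of these cells was not tested. All 8 calls were lost when arrays were scaled to their median and with normexp background correction. Leaving out knockout mouse 1 or wild-type mouse 4 lowered the 6 lower calls to 3, and the calls of Psap, Ctsf and Ctsh were each lost on leaving out any of 15 of the 20 arrays, with adjusted p up to 0.145, 0.145 and 0.126. With slide as a block, Ctsf, Ctsh and Cln3 had adjusted p = 0.0953, 0.0678 and 0.0584.

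More members were called for diet in knockout than in wild-type mice, where few of all genes were called either. In wild-type mice none rose and 1 fell, against 3.25% and 2.71% of 17543 genes, with a median of 0.11 for the members and -0.03 for all genes. The 1 that fell was Lamp2, with 5.94, 6.49, 6.31, 6.74 and 6.38 on normal and 5.84, 5.68, 6.10 and 5.81 on Western diet, which overlap. Its difference was -0.51 ± 0.14, adjusted p = 0.0346, and the call was lost on leaving out any of 7 arrays (adjusted p up to 0.0874). In knockout mice 28 rose and 5 fell, against 22.6% and 27.8% of 17548 genes, with a median of 0.46 for the members and -0.12 for all genes. The rise was at least 2-fold for 14 members, and no fall reached that size. Ctss rose by 4.18 ± 0.40, Lgmn by 2.52 ± 0.20, Psap by 2.10 ± 0.14, Ctsd by 2.08 ± 0.15, Gusb by 2.03 ± 0.13 and Galns by 2.03 ± 0.18. Lamp2 (-0.96 ± 0.14), Ctso (-0.56 ± 0.12), Aga (-0.53 ± 0.12), Gaa (-0.45 ± 0.12) and Ctsf (-0.39 ± 0.13) fell. Lamp2 read 6.18, 6.30, 6.43 and 6.34 on normal diet in the 4 knockout mice with a value, all well above the knockout mice on Western diet. In the same mice 18 of 18 macrophage markers rose, by a median of 2.01; their part in these differences was not tested.

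Whether the diet acted differently by genotype was tested by the difference of the 2 diet differences, knockout minus wild-type. For 20 members it was positive and for 4 negative, against 12.9% and 14.7% of 17540 genes, with a median of 0.40 for the members and -0.08 for all genes. The positive ones were led by Ctss (3.17 ± 0.55, adjusted p = 0.000429), Ctsd (2.23 ± 0.22, adjusted p = 2.89e-06), Psap (1.99 ± 0.20, adjusted p = 2.17e-06) and Lgmn (1.94 ± 0.28, adjusted p = 5.92e-05), and the 4 negative ones were Ctso (-0.64 ± 0.17, adjusted p = 0.0078), Gaa (-0.59 ± 0.16, adjusted p = 0.0117), Aga (-0.56 ± 0.17, adjusted p = 0.0178) and Ctsf (-0.51 ± 0.18, adjusted p = 0.0446). Of the membrane proteins 1, Cln3, had a positive difference (0.41 ± 0.15, adjusted p = 0.044); Lamp2 had -0.45 ± 0.19 and was not called. In the proton pump Atp6v1b2, Atp6v0c and Atp6v0b were positive, at 1.15, 0.71 and 0.54. With median scaling 12 were positive and none negative. The same test was positive for 8 of 18 macrophage markers (median 1.26), 5 of 7 of lipid-laden macrophages (3.27) and 3 of 5 of neutrophils. It was also positive for 7 of 11 of stellate cells and fibroblasts and 5 of 6 of bile duct cells. Negative calls were made for 3 of 14 hepatocyte, 2 of 7 Kupffer cell and 2 of 8 T and B cell markers, beside 14.7% of all genes. Of 8 endothelial markers 1 was positive and 2 were negative. The part of these cells was not tested.

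Deviations from the group mean correlated across genes between arrays of the same slide, with a median of 0.36, so the differences were compared within slides that held both groups. On Western diet the median genotype difference of the members was 0.44, 0.46, 0.30 and 0.29 on the 4 such slides, and in knockout mice the median diet difference was 0.31 to 0.58 on 5 slides. On normal diet the median genotype difference was -0.07, -0.21, 0.03 and -0.13 on 4 slides, and the median diet difference in wild-type mice was 0.02 to 0.14 on 4 slides. The sign was the same on every slide for 29 of the 31 members called between genotypes on Western diet, the exceptions being Ctse and Ppt1. For 31 of the 33 members called for diet in knockout mice it was the same on every slide, the exceptions being Ctsf and Ctso.

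Probes of 1 gene did not always give the same value. Of 24 members with at least 2 probes that passed the filter, Glb1, beta-galactosidase, was the 1 member whose probes were called in opposite directions on Western diet. Its brighter probe at chr9:114322716-114322775 (mm8) read 1.31, 1.20, 1.16, 0.70 and 1.09 in knockout and 0.78, 0.53, 0.48, 0.84 and 0.45 in wild-type mice, higher by 0.48 ± 0.14. The other, spanning chr9:114286639-114291725, read -1.79, -2.67, -2.47, -2.19 and -1.93 in knockout and -1.59, -1.90, -1.70, -1.49 and -1.55 in wild-type mice, lower by 0.56 ± 0.17. The groups overlapped on both probes, so the direction for Glb1 is uncertain. Cln3 was not called on its brighter probe and was higher by 0.94 ± 0.20 on the other. For Atp6v1a the second probe was higher by 0.78 ± 0.12 where the first was not called. The other probes of Atp6v0a1 were dimmer and parted the genotypes further than its brightest probe. On Western diet 1 of them read -0.64, -1.03, -0.48, -1.59 and -0.70 in knockout mice. In wild-type mice it read -2.79, -2.92, -2.47, -2.62 and -2.31. On the remaining probe every knockout mouse also lay above every wild-type mouse on that diet. Ctsa, Ctsd, Gla, Gusb and Psap had all their probes higher, and for Psap the second probe gave 2.19 ± 0.17.

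**Figure D4:**
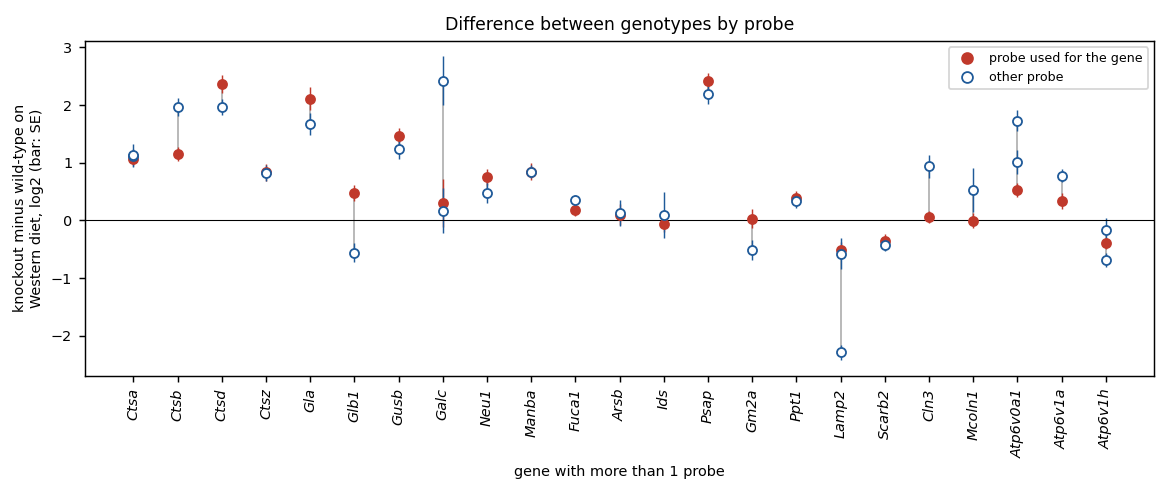
Knockout minus wild-type on Western diet (log2, bars are SE) for each probe of the genes with more than 1 probe in the fit; filled red points are the probe with the highest mean signal, which stood for the gene, and open blue points are the others. Probes lie close together for Ctsa, Manba and Psap and far apart for Glb1, Galc, Lamp2 and Atp6v0a1.

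Other genes of the pathway were taken from a list of 75 lysosomal genes, of which 69 were tested. On Western diet 32 were higher and 14 lower in knockout mice, with a median of 0.24, beside 25% and 32.7% of all genes and a median of -0.16. The same shares of all genes apply to the smaller lists that follow. These lists, too, were chosen with earlier results of these data known. Among other hydrolases and cofactors 11 of 20 rose and 5 fell: Asah1 (acid ceramidase) was higher by 1.34 ± 0.12, while Hyal1 (a hyaluronidase) differed by -1.46 ± 0.24. Ctsk (cathepsin K) had a mean level of 2.16 ± 0.42 (SD, n = 5) in knockout mice and was well above background on 1 of 5 wild-type arrays, so no exact difference is given. Other membrane and cholesterol-handling proteins gave 7 higher and 7 lower of 19, with Cd63 at 5.36 ± 0.26, Laptm5 at 2.43 ± 0.36, Npc2 at 1.46 ± 0.15 and Mfsd8 at -1.54 ± 0.14. Of 12 other pump subunits 5 rose and 1 fell. Atp6v0d2, a d subunit known from osteoclasts and macrophages, was not well above background in any wild-type mouse and was at least 31.7-fold higher in knockout mice (adjusted p = 8.32e-12), a bound from the lowest signal above background, while the member Atp6v0d1, the widely expressed d subunit, was not called. Tcirg1, an a subunit, was higher by 1.06 ± 0.19.

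Inhibitors of these proteases were measured as well. Of 5 inhibitors 4 were higher in knockout mice on Western diet, Serpinb6a by 3.32 ± 0.16, Cstb (cystatin B) by 2.24 ± 0.26 and Cst3 (cystatin C) by 0.65 ± 0.12, and Cst7 (cystatin F) was at least 2.29-fold higher, as it was above background on no wild-type array. Of 10 genes for sorting to the lysosome 3 rose and 1 fell, a share of higher genes near that of all genes; Gnptab, which makes the mannose 6-phosphate tag, was higher by 1.41 ± 0.17 and the receptor Igf2r by 1.25 ± 0.16. Of 3 relatives of Tfeb, Tfec was higher by 1.69 ± 0.26, adjusted p = 1.92e-05 and Mitf by 1.41 ± 0.35, adjusted p = 0.00219, while Tfe3 differed by 0.06 ± 0.16 and was not called.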

How the data were processed

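Total RNA of 20 livers was labelled with Cy3 and hybridised to single-colour Agilent mouse arrays annotated on mm8. The submitters' processing notes name Agilent Feature Extraction 9.5 and limma. Per the file headers, each deposited intensity had its background already subtracted. The authors' deposited value table holds log2 values with column medians of 7.734 to 7.783; its quantiles differ by at most 0.07 between arrays, and how its probes were chosen is unknown. Here spots marked as outliers (105 to 270 per array) and 1639 control spots were left out, spots of a probe were averaged, and log2 signal was set relative to the 75th percentile of each array. The probe with the highest mean stood for a gene. A gene was kept if that probe exceeded background on 4 or more of the 5 arrays in any group.

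Tests used limma 3.58.1 in R 4.3.3 (data.table, version 1.17.8; 16 residual and 2.23 prior degrees of freedom), adjusted by Benjamini-Hochberg within each of 5 comparisons at 0.05. The test was tried on simulated data. Alternatives were median and quantile scaling, normexp (offset 50), that value table, filters, the mean of all probes, outlier spots kept, slide and replicate number as blocks, the groups of the comparison only, and leaving out each array. Per-mouse values are given for the 2 members of each role with the largest called genotype difference on Western diet, for members called in a direction that under 25% of called members took, and for a few others picked after their values were seen. Other lysosomal genes were the up to 4 of each list with the largest difference; 1 of them is not reported here. Members and lists were chosen with earlier results of these data known. Promoters came from RefSeq (GRCm38.p6). Figures were drawn with Python 3.11.15 and matplotlib 3.10.9.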

Additional observations from a re-analysis of the deposited data

Results flagged for a closer look

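Within groups with 4 or 5 values, 10 of 191 groups tested had 1 mouse far from the others, and chance alone sets about 1 in 20 groups apart. Ctse read -4.42 in wild-type mouse 5 on normal diet, below the others, and 0.75 in wild-type mouse 3 on Western diet, above the others. Ctss read 2.82 in wild-type mouse 2 on normal diet and 7.41 in knockout mouse 3 on Western diet, both the highest of their group. Ctsf read 1.19 in wild-type mouse 1 on Western diet, the lowest. On Western diet Galc read -2.27 in knockout mouse 2 and Tfeb -2.86 in knockout mouse 4, both the highest. In knockout mice on normal diet Aga read 1.75 and Atp6v0d1 2.86 in mouse 5, both the highest, and Atp6v0a1 read 0.0812 in mouse 4, the lowest.

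The diet difference was not the same in the 2 genotypes for 24 members by the interaction test (limma, adjusted over 17540 genes). Among proteases it was larger in knockout mice by 3.17 for Ctss, 2.23 for Ctsd, 1.94 for Lgmn, 1.32 for Ctsb, 1.21 for Ctsa, 1.08 for Ctsc and 0.95 for Ctsz. Among glycosidases and sulfatases the values were 1.71 for Gla, 1.65 for Gusb, 1.64 for Hexa, 1.63 for Galns, 0.98 for Man2b1, 0.97 for Glb1, 0.86 for Manba and 0.57 for Neu1. Psap had 1.99, Atp6v1b2 1.15, Atp6v0c 0.71, Atp6v0b 0.54 and Cln3 0.41. Negative values were found for Ctso (-0.64), Gaa (-0.59), Aga (-0.56) and Ctsf (-0.51). On leaving out single arrays the calls of Ctsc and Cln3 were lost with any of 12 arrays, that of Ctsf with 14 and that of Neu1 with 7, with adjusted p up to 0.0767, 0.0877, 0.0823 and 0.0616. When all probes of a gene were averaged, the calls of Glb1, Man2b1, Neu1 and Cln3 were lost.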

How the results depend on the processing

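Between genotypes on Western diet, 15 of 31 calls held under every alternative, among them Ctss, Ctsd, Lgmn, Psap, Hexa, Gla, Gaa, Ctsf and Atp6v1b2, as did 19 of 33 for diet in knockout mice, 11 of 24 for the difference of the diet differences, 0 of 8 between genotypes on normal diet and 0 of 1 for diet in wild-type mice. The median difference on Western diet moved from 0.37 to 0.57 with quantile normalization and 0.55 with the series matrix, and members called lower from 7 to 2 with normexp. For diet in knockout mice the median moved from 0.46 to 0.69 and 0.65 under the same 2 settings, and members called lower from 5 to 2 with median scaling and 0 with normexp. For the difference of the diet differences, quantile normalization gave a median of 0.60, median scaling 12 positive and 0 negative members, and normexp 0 negative. On normal diet the higher calls went from 2 to 0 with median scaling and normexp, 1 without the filter and 1 with the groups of the comparison only, and ran from 1 to 3 on leaving out an array; the lower calls went from 6 to 0 with median scaling and normexp and 3 with slide as a block, and ran from 3 to 6 on leaving out an array. For diet in wild-type mice higher calls were 1 with quantile normalization, 2 with the series matrix, 1 with the mean of all probes and 0 to 1 on leaving out an array, and the lower call went to 0 with median scaling, quantile normalization, normexp, the series matrix, no filter and the groups of the comparison only, and was 0 to 1 on leaving out an array. With the mean of all probes the count of lower calls stayed at 1, but the call of Lamp2 was lost. Among members called in at least 1 of the settings compared, directions turned for Cln3 on normal diet (0.0065 with the mean of all probes), for Glb1 on Western diet (-0.0423 with the mean of all probes), for Ctsh on Western diet (0.33 with quantile normalization, 0.25 with the series matrix) and for Ctsl by diet in knockout mice (0.39 and 0.45). The cause of these changes was not tested.

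With the replicate block, same-numbered mice being different mice whose deviations correlated between -0.40 and 0.49 with a median of 0.01, the counts were 24 higher and 7 lower on Western diet, 2 and 6 on normal diet, 26 and 5 for diet in knockout mice and 20 and 5 for the difference of the diet differences. Median scaling moved the median of all genes for diet in wild-type mice from -0.03 to 0.08 and the share of higher calls among all genes from 54.5% to 66.6%, and normexp moved the share for the difference of the diet differences from 46.7% to 62.7%. With 5 mice a group, 1 array per mouse and dim probes such as Tfeb and Galc, small differences could not be resolved; saturation of Ctsl understates its high values.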

Other observations

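Of the 3 probes of Lamp2 the dimmest showed a larger difference than the brightest, a pattern picked out after its values were seen. The probe at chrX:34646608-34646667 (mm8) read -3.06, -3.32, -3.68, -2.84 and -3.28 in knockout and -1.14, -0.99, -0.98, -0.86 and -0.76 in wild-type mice on Western diet, and -1.52, -1.33, -1.04, -1.27 and -1.40 and -0.72, -0.76, -0.56, -0.44 and -0.46 on normal diet. Knockout mice were below wild-type mice on both diets without overlap, and the Western diet difference was -2.29 ± 0.14, against -0.51 ± 0.14 on the brightest probe at chrX:34649759-34649818. The remaining probe had too few values for a comparison. On Western diet it read 4.55 in knockout mouse 1 and 5.12 in wild-type mouse 3 and had no value in the other mice.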
